A study of Mus musculus with 6 samples.

Results

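Hepatic stellate cells and fibroblasts of murine HCC tumors were followed through 10 of their genes, namely Acta2, Tagln and Des (contractile and cytoskeletal proteins), Pdgfra and Pdgfrb (PDGF receptors), Lrat and Fap (enzymes), and Postn, Dcn and Lum (matrix proteins). The genes were chosen by symbol, and all 10 were found among the 55536 genes of the count table. The tumors had arisen from the murine HCC line HCA-1, implanted orthotopically in the livers of male C3H mice aged 6 to 8 weeks (C3H/HeNCrNarl in the study's methods). The 3 control tumors (numbers 5, 6 and 7) came from untreated mice, and the 3 treated tumors (numbers 1, 2 and 5) from mice given intravenous GOx-DOX-LGP, a nanogel loaded with glucose oxidase (GOx) and doxorubicin (DOX), on days 18, 19 and 20. The labels place the transcriptome analysis on day 17 after 3 h of circulation, before the doses they list. The study's methods, in their account of quantitative PCR on tumors dosed on the same days, place the harvest on the day after the last dose, and whether the sequenced tumors were taken then is not stated there. No group analysed here received an empty nanogel or a single agent, so that the effects of carrier, enzyme and drug cannot be told apart in these libraries. All tumors came from 1 cell line, and the RNA of a whole tumor holds that of host stroma and liver as well. The labels do not state that each library is a separate mouse, and p-values measure the spread between these libraries.

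Stellate cells lie between hepatocytes and the sinusoidal endothelium. At rest they store vitamin A as retinyl esters, which LRAT makes from retinol. When the liver is injured or harbors a tumor they can lose these stores, gain alpha-smooth muscle actin (Acta2) and lay down matrix under the influence of PDGF and TGF-beta. In the bulk RNA analysed here, fewer cells of a type and less RNA per cell cannot be told apart.

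RefSeq promoter windows on GRCm38.p6, which run from 250 bases before to 50 bases after an annotated start, were found for 5 of the 10 genes (Acta2, Des, Lrat, Pdgfra and Postn, the last with 2 starts and so 2 windows). Those of Acta2 and Lrat are printed because these genes had opposite patterns across the libraries, and that of Postn as a matrix gene. Capitals in Acta2 mark matches to the CArG box, the binding motif of serum response factor, with 1 mismatch in its A/T core. Capitals in Lrat mark 1 such match near its left end and, further right, GGGCGG read on the other strand, and the motif TATAAA is in capitals in the Postn window.
Acta2 (chr19:34255324-34255623, minus strand): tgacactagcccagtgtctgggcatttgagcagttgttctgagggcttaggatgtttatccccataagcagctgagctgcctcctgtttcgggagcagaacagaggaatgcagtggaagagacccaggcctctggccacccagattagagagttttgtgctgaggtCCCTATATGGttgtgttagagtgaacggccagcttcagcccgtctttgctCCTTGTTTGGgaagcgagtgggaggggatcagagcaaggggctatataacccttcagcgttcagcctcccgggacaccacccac
Lrat (chr3:82903925-82904224, minus strand): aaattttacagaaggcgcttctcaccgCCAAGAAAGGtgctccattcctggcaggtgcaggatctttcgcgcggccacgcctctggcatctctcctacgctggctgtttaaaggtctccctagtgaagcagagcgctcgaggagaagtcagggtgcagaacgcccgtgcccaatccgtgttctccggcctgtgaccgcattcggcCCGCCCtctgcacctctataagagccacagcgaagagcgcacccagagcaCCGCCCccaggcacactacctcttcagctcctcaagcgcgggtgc
Postn (chr3:54360857-54361156, plus strand): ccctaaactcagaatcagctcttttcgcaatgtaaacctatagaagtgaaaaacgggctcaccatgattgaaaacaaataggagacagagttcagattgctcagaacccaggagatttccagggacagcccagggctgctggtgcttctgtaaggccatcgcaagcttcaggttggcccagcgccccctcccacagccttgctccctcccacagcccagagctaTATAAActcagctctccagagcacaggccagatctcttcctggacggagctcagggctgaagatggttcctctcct

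Both strands were searched over 32851 promoter windows of the same length. The CArG box without a mismatch occurred in 1.63% of them and in none of the 6 windows of these genes. With 1 mismatch in the core it occurred in 8.50% of all windows, at 2 places in Acta2 and at 1 place in Lrat, where the match begins 223 bases before the start. Those of Acta2 begin 84 and 34 bases before it. GGGCGG occurred in 35.7% of all windows, among them those of Lrat and Des with 2 matches each, and TATAAA in 13.6%, among them that of Postn. A match is a description of the letters in this window.

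Libraries held between 15529940 and 18401178 counts, and TMM factors lay between 0.570 in control 7 and 1.24 in control 5 and treated tumor 5. Levels are given as CPM, that is counts scaled to the library total times its TMM factor. Controls 6 and 7 stood apart from the 4 other libraries in their liver RNA. The summed level of 8 hepatocyte markers, Alb among them, was 574 CPM in control 5, 116545 in control 6 and 194318 in control 7, and between 1224 and 3116 CPM in the treated tumors. All 8 markers were detected in every library. Results for the stellate cell and fibroblast genes are therefore also given against controls 6 and 7, and against control 5 alone. This split of the controls was read from the same libraries, so its p-values are descriptive.

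Across the 3 control and 3 treated tumors, 0 of the 10 genes had an adjusted p under 0.05 in edgeR's quasi-likelihood test, where 0% of the 15374 genes tested were called. At an unadjusted p under 0.05 only Lrat passed, lower in treated tumors, where 14.6% of all genes were lower and 2.87% higher at that threshold. DESeq2 gave the same gene alone, with an adjusted p of 0.00236, where 9.85% of all genes tested were called lower and 0.684% higher. The groups overlapped for each of the 10 genes, while 8.87% of all genes were higher and 8.31% lower without overlap. The median log2 fold change of the 10 genes was 0.09, beside 0.02 over all genes tested, and 6 of the 10 values were positive, beside 51.1% of all genes. In the plot of levels by library the 2 colours interleave for every gene.

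**Figure D1:**
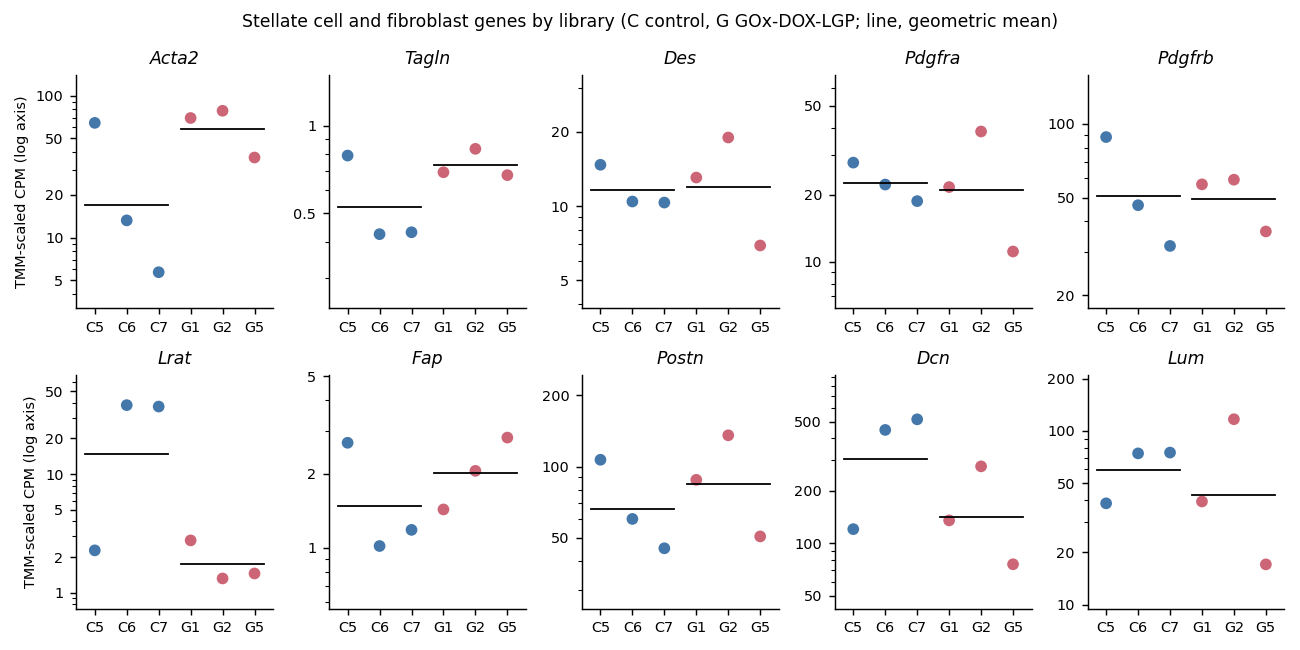
TMM-scaled CPM on a log axis for the 10 genes in control tumors 5, 6 and 7 (blue, C) and GOx-DOX-LGP tumors 1, 2 and 5 (red, G), with a line at the geometric mean of each group. Control 5 lies near the GOx-DOX-LGP tumors for Acta2 and Lrat, with Lrat at 2.28 CPM against 38.2 and 37.1 CPM in controls 6 and 7.

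Lrat (ENSMUSG00000028003, GRCm38 chromosome 3, 82892579 to 82903973, minus strand) encodes lecithin retinol acyltransferase and is a defining gene of resting stellate cells. It measured 2.28, 38.2 and 37.1 CPM in controls 5, 6 and 7, against 2.77, 1.32 and 1.46 CPM in treated tumors 1, 2 and 5. Controls 6 and 7 were high, and control 5 lay among the treated tumors, below number 1 and above numbers 2 and 5. In counts these levels were 52, 450 and 345 in controls, against 56, 27 and 28 in treated tumors. On the log2 scale the difference was -3.80 (standard error 1.04, unadjusted p = 0.0104 and adjusted p = 0.247 in edgeR), from a mean of 25.9 ± 20.4 CPM (SD, n = 3) to 1.85 ± 0.799 CPM (SD, n = 3). Against controls 6 and 7 it was -4.31 (standard error 0.34, adjusted p = 9.53e-05 in edgeR). At an adjusted p under 0.05 that comparison called 25.5% of all genes lower and 22.2% higher. Against control 5 alone the difference was -0.29 (standard error 0.59). The libraries with high Lrat were those with high hepatocyte markers, and the part of liver RNA in the difference was not tested.

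Fap (ENSMUSG00000000392, chromosome 2, 62500943 to 62574075, minus strand) encodes fibroblast activation protein, a cell-surface protease found on activated fibroblasts. It was low throughout, between 11 and 61 counts per library, with 1.02 to 2.68 CPM in control and 1.43 to 2.81 CPM in treated tumors. The log2 fold change of 0.34 (standard error 0.50) was within the spread between libraries. Its highest libraries were treated tumor 5 and control 5, and its lowest were controls 6 and 7.

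Acta2 (ENSMUSG00000035783, chromosome 19, 34241090 to 34255590, minus strand) encodes alpha-smooth muscle actin, the usual marker of activated stellate cells and myofibroblasts. It measured 64.4, 13.2 and 5.70 CPM in controls 5, 6 and 7, against 69.6, 78.3 and 36.7 CPM in treated tumors 1, 2 and 5. Controls 6 and 7 were low, while control 5 was above treated tumor 5, so that the groups overlapped. The means were 27.8 ± 31.9 CPM (SD, n = 3) and 61.6 ± 21.97 CPM (SD, n = 3), giving 1.14 on the log2 scale (standard error 0.88, adjusted p = 0.491 in edgeR). With controls 6 and 7 only, it was 2.72 (standard error 0.47, adjusted p = 0.00333 in edgeR), where 22.2% of all genes were called higher. Against control 5 alone the difference was -0.05 (standard error 0.41). Of all 50-base stretches of Acta2 transcripts, 0.326% were shared with further genes such as Actg1.

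Tagln (ENSMUSG00000032085, chromosome 9, 45929619 to 45936058, minus strand) encodes transgelin, an actin-binding protein of smooth muscle and myofibroblasts. It was counted only 4 to 18 times per library, while Acta2 in the same libraries had 53 to 1599 counts. Levels were 0.548 ± 0.209 CPM (SD, n = 3) in control, against 0.734 ± 0.0862 CPM (SD, n = 3) in treated tumors (log2 change 0.37, standard error 0.41). In GENCODE M21, exons of Pcsk7 and Gm48529 on the opposite strand cover 67.9% of the exon bases of Tagln, and the sources used here do not say whether strand was used in counting. Pcsk7, named here after its values had been seen, measured 13.7 to 32.3 CPM across the libraries. The part of this overlap in the low counts of Tagln was not tested, and its values are uncertain.

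Des (ENSMUSG00000026208, chromosome 1, 75360329 to 75368579, plus strand) encodes desmin, the intermediate filament that marks stellate cells in rodent liver. Its level was 10.3 to 14.7 CPM in control and 6.92 to 19.0 CPM in treated tumors, so that the treated range enclosed the control range. The log2 fold change was 0.13 (standard error 0.41). Treated tumor 2 had the highest and treated tumor 5 the lowest level, 2.74-fold apart. Exons on the opposite strand cover 5.86% of the exon bases of Des.

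The PDGF receptors transmit the growth signal of PDGF ligands to mesenchymal cells. Pdgfrb (ENSMUSG00000024620, chromosome 18, 61045150 to 61085061, plus strand) measured 88.4, 46.6 and 31.7 CPM in controls 5, 6 and 7, against 56.6, 59.2 and 36.4 CPM in treated tumors 1, 2 and 5. Control 5 was the highest of the libraries and control 7 the lowest, and the log2 fold change was -0.13 (standard error 0.42). Against controls 6 and 7 its sign was the opposite, at 0.40 (standard error 0.28), and against control 5 alone it was -0.78 (standard error 0.29, unadjusted p = 0.0339 in edgeR). Pdgfra (ENSMUSG00000029231, chromosome 5, 75152292 to 75198215, plus strand) lay between 18.7 and 27.9 CPM in control and between 11.1 and 38.4 CPM in treated tumors. Its log2 fold change was 0.05 (standard error 0.46), and treated tumor 2 was 3.45-fold above treated tumor 5. Opposite-strand exons cover 6.21% of its exon bases. Both receptor genes therefore varied more within a group than between the group means.

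Dcn (ENSMUSG00000019929, chromosome 10, 97479609 to 97518143, plus strand) encodes decorin, a small leucine-rich proteoglycan that binds collagen fibrils and TGF-beta. It measured 121, 447 and 515 CPM in controls 5, 6 and 7, against 135, 277 and 75.9 CPM in treated tumors 1, 2 and 5. Controls 6 and 7 were again the high libraries, and control 5 lay between treated tumor 5 and treated tumor 1. The groups differed by -1.15 on the log2 scale (standard error 0.70, adjusted p = 0.405 in edgeR). With controls 6 and 7 only, it was -1.53 (standard error 0.48, adjusted p = 0.0357 in edgeR), where 25.5% of all genes were called lower. Against control 5 alone the difference was 0.45 (standard error 0.65).

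Lum (ENSMUSG00000036446, chromosome 10, 97565128 to 97572703, plus strand) encodes lumican, a related proteoglycan of collagen fibrils. It measured 38.3, 74.2 and 75.0 CPM in controls 5, 6 and 7, against 39.2, 117 and 17.1 CPM in treated tumors 1, 2 and 5. Treated tumor 2 was the highest library and treated tumor 5 the lowest, 6.83-fold apart, and the log2 fold change was -0.12 (standard error 0.70). Postn (ENSMUSG00000027750, chromosome 3, 54361109 to 54391037, plus strand) encodes periostin, a matricellular protein of activated fibroblasts. Periostin RNA measured 70.7 ± 32.2 CPM (SD, n = 3) in control, against 91.4 ± 42.5 CPM (SD, n = 3) in treated tumors, with a difference of 0.37 on the log2 scale (standard error 0.47). Control 5 at 107 CPM and treated tumor 2 at 136 CPM were its highest libraries.

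The choice of control tumors moved most of these values, as the plot of fold changes by control shows. Against controls 6 and 7, 3 of the 10 genes had an adjusted p under 0.05 in edgeR, with Acta2 higher and Lrat and Dcn lower, where 22.2% of all genes were called higher and 25.5% lower. In that comparison 5 genes did not overlap, with Acta2, Tagln and Fap higher and Lrat and Dcn lower, where 36.8% of all genes were higher and 35.3% lower without overlap. Against control 5 alone, which was assumed to vary like the treated group, 0 of the 10 genes and 0% of all genes had an adjusted p under 0.05 in edgeR. The sign was the opposite of that with 3 controls for 8 of the 10 genes, all except Lrat and Pdgfrb. At an unadjusted p under 0.05 this comparison called 1 of the 10, Pdgfrb, which was lower, and 2.29% of all genes lower and 3.18% higher.

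**Figure D2:**
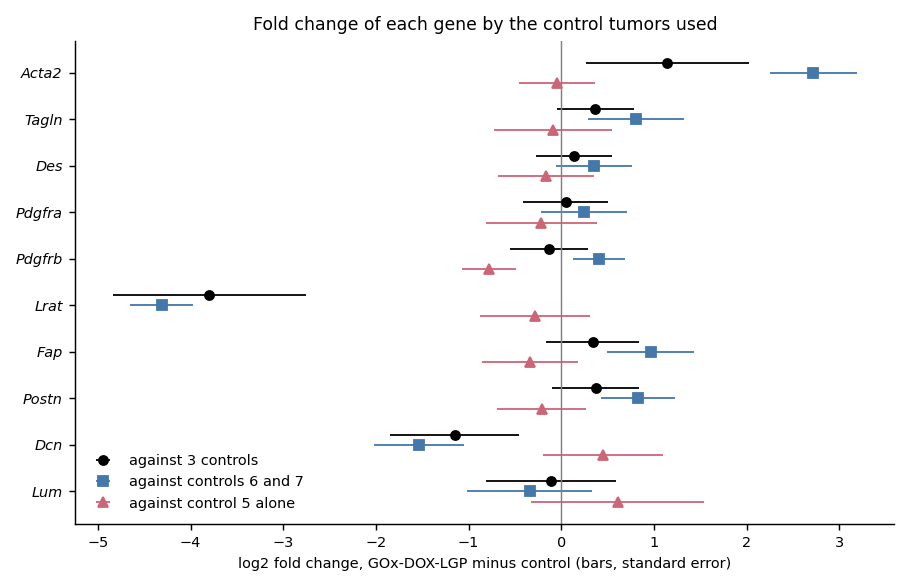
Log2 fold change of GOx-DOX-LGP over control tumors with its standard error from edgeR, for the 10 genes against all 3 controls (black circles), controls 6 and 7 (blue squares) and control 5 alone (red triangles). Lrat lies at -3.80 and -4.31 with controls 6 and 7 included and at -0.29 against control 5 alone, and Acta2 at 1.14, 2.72 and -0.05.

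Ratios of genes within a library do not depend on how libraries are scaled. The log2 ratio of Acta2 to Lrat, an activated over a resting marker, taken on counts plus 0.5, was 4.80, -1.53 and -2.69 in controls 5, 6 and 7, against 4.64, 5.86 and 4.63 in treated tumors 1, 2 and 5. Control 5 lay between treated tumor 1 and treated tumor 2, and controls 6 and 7 were far below all of these. Controls 6 and 7 were also the libraries with high hepatocyte markers, and the part of liver RNA in the ratios was not tested. The difference of the means was 4.85 (two-sided exact permutation test, p = 0.3, adjusted p = 0.5 over 5 ratios). Postn to Dcn showed the same grouping, at -0.17, -2.89 and -3.51 in controls, against -0.62, -1.03 and -0.58 in treated tumors. Here control 5 was above all treated tumors (difference of means 1.45, exact permutation test, p = 0.4, adjusted p = 0.5).

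The remaining ratios had smaller differences of means. The largest of these was 1.37 for Acta2 to Tagln, which had the lowest permutation p of the 5 ratios. Dcn to Lum was 2.34 ± 0.602 (SD, n = 3) on the log2 scale in control and 1.73 ± 0.456 (SD, n = 3) in treated tumors (exact permutation test, p = 0.3, adjusted p = 0.5). Pdgfra to Pdgfrb was -1.16 ± 0.460 (SD, n = 3) and -1.24 ± 0.556 (SD, n = 3) (exact permutation test, p = 0.9, adjusted p = 0.9). Acta2 to Tagln was 4.90 ± 1.37 (SD, n = 3) and 6.27 ± 0.493 (SD, n = 3) (exact permutation test, p = 0.2, adjusted p = 0.5), with the uncertainty of Tagln stated above. With 3 libraries against 3 the exact permutation test cannot go below p = 0.1, and no ratio reached that value.

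**Figure D3:**
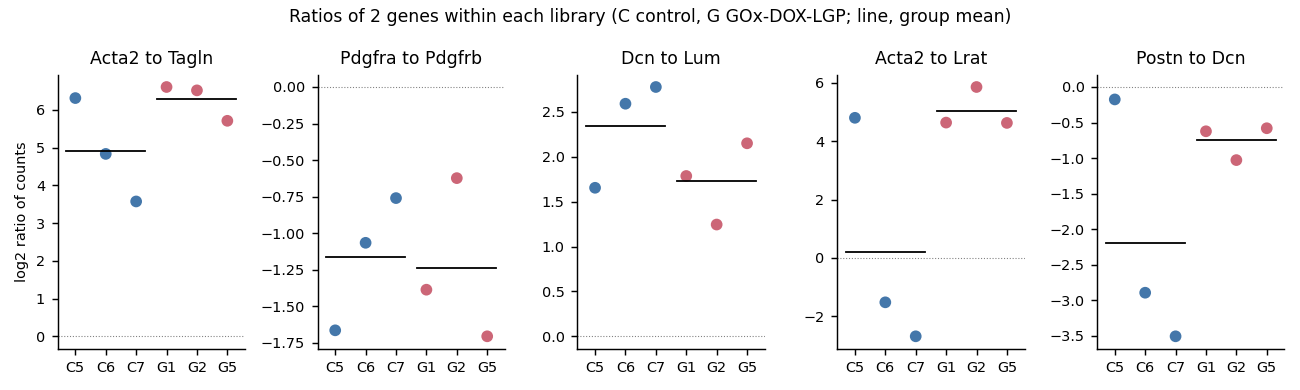
Log2 ratio of the counts of 2 genes within each library, for control tumors 5, 6 and 7 (blue, C) and GOx-DOX-LGP tumors 1, 2 and 5 (red, G), with lines at the group means and a dotted line at a ratio of 0. For Acta2 to Lrat, controls 6 and 7 lie at -1.53 and -2.69 and the 4 other libraries between 4.63 and 5.86.

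Levels were compared between genes as CPM per kilobase of annotated exon. Averaged over the 6 libraries, the order was Dcn (44.8), Lum (24.5), Acta2 (20.3), Pdgfrb (9.70), Postn (9.32), Des (3.30), Lrat (2.59), Pdgfra (2.33), Fap (0.329) and Tagln (0.322). Neighbours in this order overlapped in their ranges over the libraries, except Postn and Des, and Pdgfra and Fap. The leading gene was not the same in all libraries. In controls 6 and 7, Dcn led with 76.6 and 88.2 CPM per kilobase, against 6.02 and 2.60 for Acta2. In control 5 and treated tumors 1 and 5, Acta2 led with 29.3, 31.7 and 16.7 CPM per kilobase, against 20.7, 23.2 and 13.0 for Dcn. Treated tumor 2 had Lum at 47.6, Dcn at 47.4 and Acta2 at 35.7 CPM per kilobase.

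Other genes of resting stellate cells were counted from a list of 12, of which 11 passed the filter on low counts. At an unadjusted p under 0.05 in edgeR, 5 of the 11 were lower in treated tumors and 0 higher, beside 14.6% and 2.87% of all genes. At an adjusted p under 0.05 there were 0 of these 11, beside 0% of all genes. Their median log2 fold change was -1.14, with 10 of 11 negative, beside 7512 of 15374 genes. Scaled by library totals, which moved the median of all genes from 0.02 to 0.51, their median was -0.45 and 3 of the 11 were lower at an unadjusted p under 0.05 in edgeR, beside 7.89% of all genes lower and 2.91% higher. Reln, which encodes reelin, a secreted protein made by stellate cells in liver, measured 18.5, 70.5 and 129 CPM in controls 5, 6 and 7, against 13.7, 7.30 and 8.22 CPM in treated tumors 1, 2 and 5 (log2 change -2.90, standard error 0.72). Unlike for Lrat, every treated tumor was below every control, as for 8.31% of all genes, although control 5 was nearer to the treated tumors than to controls 6 and 7.

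Vipr1, a receptor for vasoactive intestinal peptide, had a log2 fold change of -4.58 (standard error 1.20), and Colec11, a collectin, of -3.29 (standard error 0.76). Vipr1 in control 5 at 2.33 CPM lay within the treated range of 0.980 to 2.52 CPM, whereas Colec11 in control 5 at 6.98 CPM was above all treated tumors. DESeq2 gave an adjusted p under 0.05 for 3 genes of the list, namely Reln (0.00278), Vipr1 (0.000870) and Colec11 (0.00102), all lower, beside 9.85% of all genes. Against controls 6 and 7 the median was -1.48, and 7 of 11 genes were lower and 1 higher at an adjusted p under 0.05 in edgeR, beside 25.5% and 22.2% of all genes. With control 5 as the only control, the median was -0.24 over 12 genes, and 0 had an unadjusted p under 0.05.

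**Figure D4:**
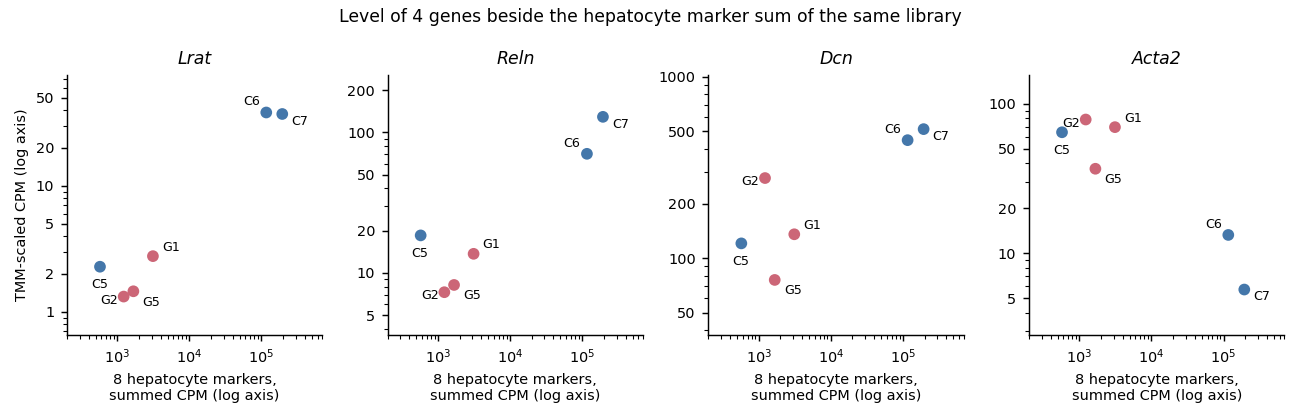
TMM-scaled CPM of Lrat, Reln, Dcn and Acta2 against the summed CPM of 8 hepatocyte markers in the same library, both on log axes, for control (blue, C) and GOx-DOX-LGP tumors (red, G). Controls 6 and 7, with sums of 116545 and 194318 CPM, lie highest for Lrat, Reln and Dcn and lowest for Acta2, and the 4 other libraries have sums from 574 to 3116 CPM.

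Pericyte genes, which mark the mural cells of small vessels, were split. Of 7 kept, 3 were lower at an unadjusted p under 0.05 in edgeR and 0 higher, beside 14.6% and 2.87% of all genes, with a median log2 fold change of 0.22. Rgs5, a regulator of G-protein signalling, measured 65.2, 210 and 253 CPM in controls 5, 6 and 7, against 39.5, 33.7 and 22.01 CPM in treated tumors 1, 2 and 5, without overlap (log2 change -2.47, standard error 0.56). Abcc9, a subunit of potassium channels of mural cells, had a log2 fold change of -1.71 (standard error 0.44), also without overlap. Of all genes, 8.31% were lower without overlap. Cspg4, a proteoglycan of mural cells, was at 1.32 (standard error 0.77). The choice of controls and scaling turned or moved this median. Against controls 6 and 7 it was 0.80, with 3 genes lower and 2 higher at an adjusted p under 0.05 in edgeR, beside 25.5% and 22.2% of all genes. Against control 5 alone it was -0.67, with 2 lower at an unadjusted p under 0.05 in edgeR and 0 higher, beside 2.29% and 3.18%. Under library totals it was 0.44, beside 0.51 over all genes, with 2 lower and 0 higher at that threshold, beside 7.89% and 2.91%. The summed level of 6 endothelial markers was 114, 329 and 369 CPM in controls 5, 6 and 7. In treated tumors it was 83.5 to 100.2 CPM. At an unadjusted p under 0.05 in edgeR, 5 of 6 markers were lower, beside 14.6% of all genes. Under library totals 3 of 6 were lower, beside 7.89% of all genes. The median log2 fold change of these markers was -1.73, against -2.05 without control 5 and -0.37 against control 5 alone. The part of vessel cells in these values was not tested.

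Contractile and smooth muscle genes gave 12 kept, 7 with a positive log2 fold change (51.1% of all genes) and a median of 0.42. Without overlap 4 were lower and 0 higher, beside 8.31% and 8.87% of all genes. At an unadjusted p under 0.05 in edgeR, 2 were lower, Myh11 (log2 change -1.74, standard error 0.58) and Mylk (-1.24, standard error 0.39), and 0 higher, beside 14.6% and 2.87% of all genes. Under library totals 0 were lower and 0 higher at that threshold, beside 7.89% and 2.91% of all genes. The median was then 0.78, beside 0.51 over all genes. Myh11 encodes the myosin heavy chain of smooth muscle and Mylk the kinase of its light chain. Actg2, gamma-smooth muscle actin, had the same order of libraries as Acta2, with 6.41, 0.933 and 0.108 CPM in controls 5, 6 and 7 (the last a single count), against 14.3, 16.3 and 3.43 CPM in treated tumors 1, 2 and 5 (log2 change 2.14, standard error 1.23). Without control 5 the calls lay mostly the other way, with 6 of 12 higher and 2 lower at an adjusted p under 0.05 in edgeR, beside 22.2% and 25.5% of all genes, and a median of 1.07. With control 5 as the only control, the median was -0.20, with 2 of 12 positive, beside 9017 of 16849 genes.

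The ligands and the pathway upstream of these cells were 4 PDGF ligands and 17 TGF-beta pathway genes. None of them had an adjusted p under 0.05 in edgeR, where 0 of all 15374 genes were called. Pdgfb measured 17.0, 6.95 and 3.55 CPM in controls 5, 6 and 7, against 18.8, 19.1 and 20.97 CPM in treated tumors 1, 2 and 5. Its treated tumors lay above all controls, as for 8.87% of all genes (log2 change 1.09, standard error 0.56). Pdgfc was at 0.87 (standard error 0.60) and Pdgfd at -1.20 (standard error 0.45). The latter was lower at an unadjusted p of 0.0349 in edgeR, where 14.6% of all genes were lower at p under 0.05. The median of the 4 ligands was 0.73, against 1.34 without control 5, where 3 were higher and 1 lower at an adjusted p under 0.05 in edgeR (22.2% and 25.5% of all genes), and 0.05 against control 5 alone. Tgfb1 measured 154, 44.4 and 30.3 CPM in controls, against 158, 131 and 143 CPM in treated tumors, so that control 5 lay among them.

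Of the 17 TGF-beta pathway genes, 16 had a positive log2 fold change (51.1% of all genes), with a median of 0.50. Ctgf, a matricellular target of TGF-beta, was the one gene with an unadjusted p under 0.05 in edgeR, higher in treated tumors as were 2.87% of all genes. It measured 30.1, 18.9 and 12.9 CPM in controls, against 55.9, 68.7 and 37.2 CPM in treated tumors, without overlap as for 8.87% of all genes. Its log2 change was 1.38 (standard error 0.39, adjusted p = 0.247 in edgeR and 0.0337 in DESeq2). Exons of Gm15270 on the opposite strand cover 23.2% of its exon bases, so its counts are uncertain in part. Ltbp2, a latent TGF-beta binding protein family member, was at 1.264 (standard error 0.91). Against control 5 alone 6 of 17 genes were positive (9017 of 16849 genes), with a median of -0.09. Against controls 6 and 7 all 17 were positive (8544 of 16249 genes), with a median of 1.21. In that comparison 11 of the 17 were higher at an adjusted p under 0.05 in edgeR, beside 22.2% of all genes.

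Matrix genes showed the same dependence. All 8 fibrillar and type VI collagens had a positive log2 fold change (51.1% of all genes), with a median of 0.83. At an unadjusted p under 0.05 in edgeR 0 of 8 were called, beside 14.6% of all genes lower and 2.87% higher. Col1a1 measured 2281, 334 and 223 CPM in controls 5, 6 and 7, against 1852, 2260 and 806 CPM in treated tumors 1, 2 and 5, so that control 5 was the highest library. With controls 6 and 7 only, all 8 collagens were higher at an adjusted p under 0.05 in edgeR (median 2.29), beside 22.2% of all genes. Against control 5 alone 1 of 8 had a positive log2 fold change (median -0.31), beside 9017 of 16849 genes. Col6a1 (1.08, standard error 0.78), Col6a2 (1.00, standard error 0.80) and Col5a1 (0.89, standard error 0.94) had the largest differences with all controls.

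Of 18 matrix proteoglycans and glycoproteins kept, 14 had a positive log2 fold change (median 0.73), beside 51.1% of all genes. Only 1 had an unadjusted p under 0.05 in edgeR, higher as were 2.87% of all genes. This was Mfap5, a microfibril protein, with 1.05, 0.424 and 0.430 CPM in controls 5, 6 and 7, against 2.22, 16.2 and 1.56 CPM in treated tumors 1, 2 and 5 (log2 change 3.31, standard error 1.08, adjusted p = 0.247 in edgeR and 0.0155 in DESeq2). Treated tumor 2 was far above the rest. Lox, the collagen cross-linking enzyme, was at 1.87 (standard error 1.21). Ogn, a proteoglycan related to Dcn and Lum, was at -1.72 (standard error 1.88), with 0.658 to 213 CPM among the controls alone. Without control 5, 9 of 19 genes tested were higher and 0 lower at an adjusted p under 0.05 in edgeR (median 1.35), beside 22.2% and 25.5% of all genes, and against control 5 alone the median was 0.29.

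Inflammatory fibroblast genes were a list of 10, of which 8 had a positive log2 fold change (51.1% of all genes), with a median of 0.89. Cxcl12, a chemokine of mesenchymal cells that retains leukocytes, measured 20.6, 546 and 676 CPM in controls 5, 6 and 7, against 32.1, 122 and 21.2 CPM in treated tumors 1, 2 and 5 (log2 change -2.82, standard error 1.29). As for Dcn, controls 6 and 7 were the highest libraries, treated tumor 2 came next, and control 5 lay with the others. Has1, a hyaluronan synthase, was at 2.06 (standard error 0.96), and Pi16, a marker of resting fibroblasts, at 1.97 (standard error 0.66). Both were without overlap, as were 8.87% of all genes in that direction, and low, at no more than 5.29 CPM. As it holds Pi16, the list is not particular to an inflammatory state. Only Pi16 of this list had an unadjusted p under 0.05 in edgeR, where 2.87% of all genes were higher. None of the 10 had an adjusted p under 0.05 in edgeR, beside 0% of all genes. DESeq2 called none of them either, beside 9.85% of all genes lower and 0.684% higher. Without control 5 the median of the list was 2.41, with 5 of 10 higher and 1 lower at an adjusted p under 0.05 in edgeR, beside 22.2% and 25.5% of all genes. With control 5 as the only control it was 0.78, with 2 lower at an unadjusted p under 0.05 in edgeR and 0 higher, beside 2.29% and 3.18%.

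Under library totals the other lists had medians of 1.06 for PDGF ligands, 0.71 for TGF-beta pathway genes, 1.02 for collagens, 1.00 for matrix proteoglycans and glycoproteins and 1.28 for inflammatory fibroblast genes, where the median of all genes was 0.51.

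**Figure D5:**
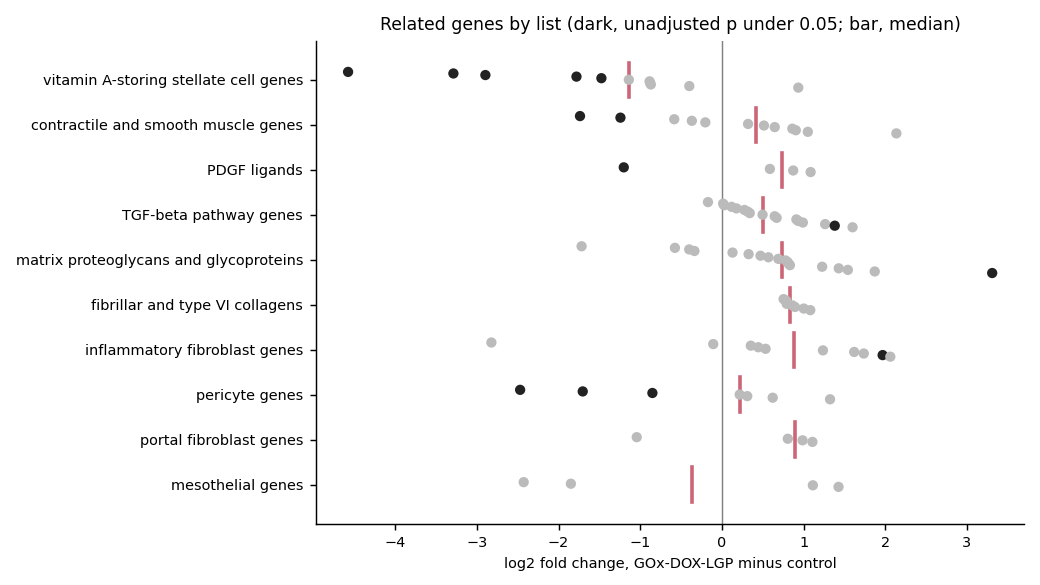
Log2 fold change of GOx-DOX-LGP over control tumors for each gene kept in 10 lists of related genes (points), dark where the unadjusted p of edgeR was under 0.05, with a red bar at the median of each list. The list of vitamin A-storing stellate cell genes has its median at -1.14, and the collagens lie together around 0.83.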

How the data were processed

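Bulk RNA of 3 control and 3 GOx-DOX-LGP tumors was analysed. The deposited tables hold whole-number read counts per gene and, as a signal, the same counts divided by the authors' size factors, which were used only to read off those factors. The study's methods name TopHat and HTSeq, whereas the submitters' processing notes name Trimmomatic 0.38, HISAT2 2.1.0 and featureCounts 2.0.0. Genome build, annotation release and strand setting of the counting are not given in the sources used here. Of the gene identifiers, 55450 of 55536 occur in GENCODE M21 (GRCm38), from which coordinates, exon lengths and overlaps were taken.

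Counts of 15529940 to 18401178 per library were tested with edgeR 4.0.16 (quasi-likelihood, TMM, default filter, 15374 genes kept, Benjamini-Hochberg adjustment over all of them, R 4.3.3). DESeq2 1.42.0 and voom with sample quality weights (limma 3.58.1) were alternatives, with other scalings, filters and left-out libraries. A floor of 3 counts corresponded to 0.132 to 0.323 CPM. It covers counting error only. In a simulation at the median dispersion of 0.157, 200 genes were altered by a log2 difference of 2. Among 15085 genes, edgeR found 141 of them with 5 false calls, and voom found 129 with 7. DESeq2 found 156 with 25 false calls among 15374 genes. A single dispersion does not model the gap in liver RNA between control 5 and the other controls. The simulation therefore does not give the share of altered genes found in these libraries. Ratios were tested with exact permutation tests (SciPy 1.17.1).

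The 10 genes and the gene lists were chosen with earlier results of these data known. The rule for named genes took all 10 genes, for each related list the 3 genes with the largest absolute log2 fold change, Tgfb1, Pdgfb, Col1a1 and Reln, and the first gene of each cell type list. A gene that this rule took is not reported here. The CArG box with 1 mismatch was chosen after the sequences had been seen.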

Additional observations from a re-analysis of the deposited data

How the results depend on the processing

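No paired analysis was possible because the groups share only the number 5, and nothing in the labels ties the 2 libraries that carry it. With an adjusted p under 0.05, edgeR called 0 genes, DESeq2 1739 and voom with quality weights 9254, and leaving out each library in turn gave 0 to 7745, the highest without control 5. Of the 10 genes these calls held 0, 1 and 3, and 0 to 3 with a library left out. At an unadjusted p under 0.05 in edgeR there was 1 of the 10, beside 2685 of 15374 genes. Under voom there were 3, beside 9984 of 15374 genes. With a library left out there were 1 to 3, the 3 without control 5, beside 9026 of 16249 genes. Between 0 and 5 of the 10 did not overlap. The 5 came without control 5, where 36.8% of all genes were higher and 35.3% lower without overlap. Signs turned under voom for Pdgfra (-0.067) and Pdgfrb (0.23), under library totals for Pdgfrb (0.20) and Lum (0.53), and under upper-quartile scaling for Lum (0.071). Library totals moved the median of all genes from 0.02 to 0.51. Against control 5 alone the log2 fold changes of Acta2 (-0.048), Tagln (-0.090), Des (-0.16), Pdgfra (-0.21), Fap (-0.34), Postn (-0.21), Dcn (0.45) and Lum (0.61) had the opposite sign. With a library left out, values ran from -0.23 to 0.48 for Des, -0.47 to 0.43 for Pdgfra, -0.42 to 0.40 for Pdgfrb, -0.016 to 0.83 for Postn and -1.13 to 0.37 for Lum, and from -0.38 to 0.16 for the log2 ratio of Pdgfra to Pdgfrb. Lrat stayed between -4.31 and -3.41, Acta2 between 0.66 and 2.72 and Dcn between -1.75 and -0.76. The causes were not tested. The counts and medians of the gene lists without control 5, against control 5 alone and under library totals were added after seeing the data.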

Other observations

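Portal fibroblast genes, which mark the fibroblasts around bile ducts, were 4, of which 3 had a positive log2 fold change (51.1% of all genes). At an unadjusted p under 0.05 in edgeR 0 of 4 were called, beside 14.6% of all genes lower and 2.87% higher. The median of the 4 was 0.90, against 1.68 without control 5, where 2 were higher at an adjusted p under 0.05 in edgeR (22.2% of all genes). It was 0.35 against control 5 alone and 1.15 under library totals. Thy1 was at 1.11 (standard error 0.68), Cd34 at 0.99 (standard error 0.55) and Entpd2 at -1.04 (standard error 0.76). Of the exon bases of Entpd2, 28.8% are shared with Npdc1 on the same strand. The part of other cell types in the levels of these genes was not tested. Of 6 mesothelial genes, which mark the lining of the liver surface, 4 were kept and split evenly in sign. Their median was -0.37, against -0.74 without control 5, where 2 were lower and 1 higher at an adjusted p under 0.05 in edgeR (25.5% and 22.2% of all genes). It had the opposite sign against control 5 alone, at 1.46 over 5 genes, and under library totals, at 0.33. Msln, the mesothelin gene, measured 109.9, 52.3 and 19.2 CPM in controls 5, 6 and 7, against 123, 209.9 and 155.5 CPM in treated tumors 1, 2 and 5. Its treated tumors were above every control, as for 8.87% of all genes (log2 fold change 1.43, standard error 0.63, adjusted p = 0.303 in edgeR). Gpm6a was at -2.43 (standard error 1.09) and Upk3b at -1.85 (standard error 1.36), the latter with 0 counts in control 5.

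Markers of other cells also differed between libraries. The summed level of 5 T cell markers was 22.9 to 68.4 CPM in control and 94.8 to 132 CPM in treated tumors, without overlap, and 3 of the 5 were higher at an unadjusted p under 0.05 in edgeR, beside 2.87% of all genes. Singly, 4 of the 5 were higher without overlap, beside 8.87% of all genes. Against control 5 alone 3 of the 5 were higher at an unadjusted p under 0.05 in edgeR, beside 3.18%. Cd3d, a chain of the T cell receptor complex, measured 3.42, 2.46 and 1.72 CPM in controls, against 7.81, 7.20 and 10.4 CPM in treated tumors (log2 fold change 1.73, standard error 0.36, adjusted p = 0.247 in edgeR and 0.00114 in DESeq2). The sum of 5 macrophage markers lay between 309 and 852 CPM, that of 4 biliary markers between 28.4 and 194 CPM, and that of 6 skeletal muscle markers between 1.10 and 2.60 CPM over all libraries. The first gene of each of these lists and of the endothelial list measured 27.8 to 106.5 CPM for Adgre1, 0.624 to 1.88 CPM for Krt7 and 33.7 to 44.1 CPM for Pecam1, and Ckm had at most 2 counts in a library.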
